A study of Mus musculus with 21 samples.

Results

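The loss of cytosine-5 methylation in NSun2-/- mouse skin was set against the change in 5′ tRNA fragments, one tRNA isoacceptor at a time. An isoacceptor is the set of tRNAs that share an anticodon, written here as the amino acid and the DNA letters of the anticodon. Methylation was read from RNA bisulphite sequencing, as the percent of reads left unconverted at cytosines 48 to 50 of the tRNA, the junction of the variable loop and the TΨC arm. 5′ tRNA fragments were reads with a length of 25 to 40 nt and a 5′ end on the first base of a tRNA gene. Of the 47 isoacceptors of the tRNA genes used, 22 had a cytosine that could be compared at positions 48 to 50 and 43 had 5′ fragments, and 21 were measured in both assays. These 21 are the members described here, with 175 cytosines in 80 genes. ThrCGT was the only isoacceptor with methylation values but no 5′ fragments that could be compared. It fell from 100% in 3 WT libraries to 10.8% ± 4.13 (SD, n = 3) in NSun2-/- skin.

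Both assays used total back skin of male mice at postnatal day 25, when hair follicles enter anagen, on a C57Bl6/J CBA F1 background. NSun2-/- mice carried a gene trap from a single embryonic stem cell clone in all cells, and WT mice came from the same breedings. Each assay had 4 WT and 4 NSun2-/- libraries, and the labels do not link the animals of one assay to those of the other. The submitters describe the 4 libraries of each group as independent biological replicates. Whole skin holds many cell types, and fewer cells of a type and less RNA per cell cannot be told apart in such samples.

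NSun2 is an RNA methyltransferase that adds a methyl group to carbon 5 of cytosine in tRNAs, chiefly where the variable loop meets the TΨC arm. Dnmt2, another methyltransferase, acts on cytosine 38 in the anticodon loop of a few tRNAs. Angiogenin and related nucleases cut tRNAs in the anticodon loop and leave a 5′ and a 3′ part, and the study asked whether tRNAs that lose NSun2 methylation accumulate as 5′ fragments. Sodium bisulphite converts unmethylated cytosine and leaves 5-methylcytosine as it is, although folded or incompletely treated RNA can also keep cytosines that carry no methyl group.

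One gene is shown for each isoacceptor whose values are given library by library, because these tRNAs mark the ends of the range in methylation loss and in fragment change. GlyGCC and GlyCCC are added because most 5′ fragments came from the first and because the fragments of the second turned out to be shared with it. Each gene is the one with the highest median coverage at positions 48 to 50, read from mm9 in the sense of the tRNA. Capitals mark positions 48 to 50, and only the cytosines among them were counted.
MetCAT, initiator type (chr13:23622217-23622288, minus strand): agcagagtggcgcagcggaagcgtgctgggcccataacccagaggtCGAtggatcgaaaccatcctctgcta
AspGTC (chr1:173032502-173032573, plus strand): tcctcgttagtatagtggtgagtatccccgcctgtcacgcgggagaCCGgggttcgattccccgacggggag
LeuTAG (chr7:127978993-127979074, minus strand): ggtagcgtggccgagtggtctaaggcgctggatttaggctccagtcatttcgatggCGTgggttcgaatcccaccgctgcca
GlyTCC (chr1:173032887-173032958, plus strand): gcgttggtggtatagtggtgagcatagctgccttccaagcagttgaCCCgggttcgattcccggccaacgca
ArgACG (chr14:55136533-55136605, plus strand): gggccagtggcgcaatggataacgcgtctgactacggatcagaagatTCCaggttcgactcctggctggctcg
TyrGTA (chr5:31190456-31190544, plus strand): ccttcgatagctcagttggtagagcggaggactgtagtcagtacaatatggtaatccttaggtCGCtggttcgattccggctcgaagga
GlyACC (chr11:48637230-48637303, plus strand): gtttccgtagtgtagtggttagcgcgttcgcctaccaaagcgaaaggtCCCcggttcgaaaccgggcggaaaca
AlaAGC (chr3:19528995-19529067, plus strand): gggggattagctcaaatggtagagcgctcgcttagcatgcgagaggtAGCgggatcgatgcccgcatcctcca
ValAAC (chr13:23505117-23505189, minus strand): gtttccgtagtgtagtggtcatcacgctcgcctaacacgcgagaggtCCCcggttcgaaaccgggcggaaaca
ValCAC (chr13:23538011-23538083, minus strand): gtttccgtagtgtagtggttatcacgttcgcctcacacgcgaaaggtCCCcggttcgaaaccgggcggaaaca
SerAGA (chr11:68850979-68851060, plus strand): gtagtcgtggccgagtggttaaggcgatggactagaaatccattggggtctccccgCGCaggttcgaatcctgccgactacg
GlyGCC (chr8:113154453-113154523, minus strand): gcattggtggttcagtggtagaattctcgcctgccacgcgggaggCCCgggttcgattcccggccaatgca
GlyCCC (chr6:86353887-86353957, plus strand): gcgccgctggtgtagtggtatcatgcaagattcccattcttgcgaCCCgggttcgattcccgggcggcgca

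The targeted gene was checked in the bisulphite libraries, where WT skin listed between 23 and 48 cytosines of Nsun2 and each NSun2-/- library listed 0. Cytosines of epidermal keratins, of type I and III collagen, of hair follicle keratins and of the muscle genes Acta1, Ckm and Myh4 were listed in all 8 libraries. Of the fat cell genes, Plin1 had 0 to 39 listed cytosines in WT and 28 to 307 in NSun2-/- skin and Adipoq 77 to 96 and 77 to 157. The libraries listed 156018 to 196679 cytosines in all in WT and 110324 to 665049 in NSun2-/- skin, and the part of fat cells in the results was not tested. The median cytosine at positions 48 to 50 had between 201 and 301 reads in the WT libraries and between 132 and 340 reads in the NSun2-/- libraries. The tRNA-seq libraries held 17352126 to 36749727 counts, and 5′ fragments took 71.6% to 82.3% of them in WT and 80.8% to 90.1% in NSun2-/- skin. The 21 members made up 97.1% to 98.2% of these fragments in every library.

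One bisulphite library stood apart. At cytosines 1 to 30 of the same genes, which lie 5′ of the anticodon, the third NSun2-/- library was unconverted in 1.25% of reads on average over 16 members. The other NSun2-/- libraries gave 27.6%, 37.8% and 24.7%, and the WT libraries 9.03%, 9.62%, 9.00% and 17.7%. The values at cytosines 1 to 30 are called background below. The WT background averaged 11.3% ± 4.24 (SD, n = 4) and the NSun2-/- background 22.8% ± 15.4 (SD, n = 4; exact two-sided permutation test, p = 0.229). The third NSun2-/- library widened this spread, and each of the other NSun2-/- libraries lay above every WT library. Some of the values below that move with this library are also given without it.

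Methylation at positions 48 to 50 was lower in NSun2-/- skin. The mean over the 21 members fell from 69.0% ± 3.56 (SD, n = 4) to 38.4% ± 12.3 (SD, n = 4). The difference was -30.6 percentage points, and all 4 NSun2-/- libraries lay below all 4 WT libraries (p = 0.0286 by an exact two-sided permutation test, which cannot go lower with this design). It was -25.3 points without the third NSun2-/- library and -51.3 points after the background of each isoacceptor and library was removed, which was possible for 16 members. This removal took some values of NSun2-/- libraries below 0, so that corrected differences can be too large. Over the 15 members with a value in all 8 libraries the uncorrected difference was -35.9 points. Tested one by one on both counts with edgeR's quasi-likelihood test, 12 of the 21 members were lower at an adjusted p under 0.05, against 59.1% of the 22 isoacceptors with methylation values, and none was higher.

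**Figure D1:**
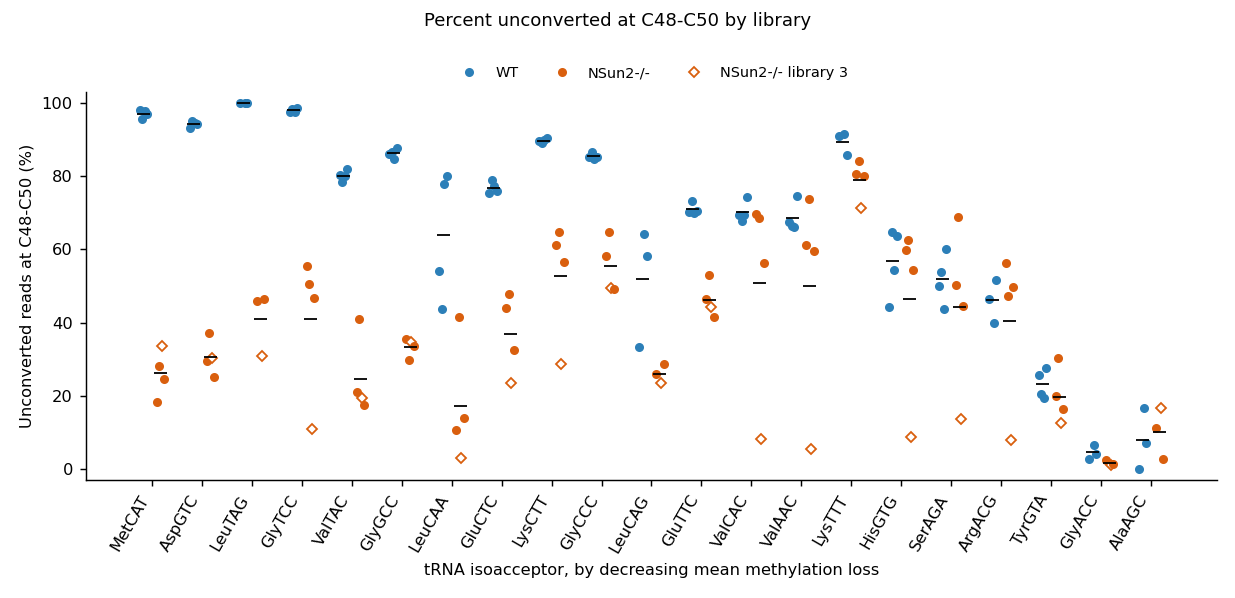
Percent of unconverted reads at C48-C50 (y axis) for each of the 21 isoacceptors (x axis, by decreasing loss), with 1 point per library, WT in blue, NSun2-/- in orange and means as bars. The open diamonds of the third NSun2-/- library sit far below the other NSun2-/- libraries for ValCAC, ValAAC, HisGTG, SerAGA, ArgACG and GlyTCC.

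The largest loss was in MetCAT, whose testable genes were all of the initiator type that starts protein synthesis. The WT libraries gave 98.2%, 95.6%, 97.8% and 96.9%, and the NSun2-/- libraries 18.4%, 28.2%, 33.5% and 24.5%, a difference of -71.0 points (edgeR, adjusted p = 2.41e-07). The groups lay far apart, and the 6 genes spread only from -76.5 to -62.7 points.

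AspGTC, which carries aspartate, came next. Its WT libraries gave 93.2%, 95.2%, 94.4% and 94.3%, and its NSun2-/- libraries 29.6%, 37.3%, 30.4% and 25.0%, a difference of -63.7 points (edgeR, adjusted p = 2.27e-07). The groups did not overlap. Of its 9 genes, 8 lost between 57.4 and 75.1 points, and the remaining gene started from a lower level of 72.4% ± 3.49 (SD, n = 4) and fell by 34.8 points.

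LeuTAG, a leucine tRNA with a long variable arm, rested on 1 cytosine of 1 gene with a median of 16 reads. It was at 100% in all 3 WT libraries that covered it and at 45.8%, 30.8% and 46.4% in NSun2-/- libraries 1, 3 and 4, a difference of -59.0 points (edgeR, adjusted p = 0.000112).

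GlyTCC, which carries glycine, fell from 97.5%, 98.4%, 97.7% and 98.7% to 55.4%, 50.5%, 10.99% and 46.9%, a difference of -57.1 points (edgeR, adjusted p = 2.35e-05). The low value of the third library moved with the background, which was 56.6%, 48.5%, 0.86% and 39.4% in the NSun2-/- libraries and 16.2% to 35.6% in WT. The difference was -47.2 points without the third library and -91.6 points after removal of the background.

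Another 8 members passed the test. They were ValTAC at -55.5, GlyGCC at -52.9, LeuCAA at -46.5, GluCTC at -39.9, LysCTT at -36.9, GlyCCC at -30.05, LeuCAG at -26.0 and GluTTC at -24.7 points. Without the third NSun2-/- library LysCTT was at -28.9, LeuCAA at -41.8 and GluCTC at -35.4 points. LeuCAG rested on 1 cytosine with a median of 14 reads, and its call was lost without the third NSun2-/- library (edgeR, adjusted p = 0.0507). GlyGCC was covered by a median of 51417 reads per cytosine, the deepest of all, and its background averaged 0.78% ± 0.15 for WT and 1.77% ± 1.41 for NSun2-/- libraries (SD, n = 4). Its 10 genes lost unequal amounts. The gene shown above fell from 95.4% to 17.03%, by 78.4 points, whereas the gene with the smallest loss fell from 77.3% to 48.6%. Reads of near-identical tRNA genes can be split by the alignment, so that values of single genes are uncertain.

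The other 9 members did not pass the test on positions 48 to 50 together. They were ValCAC at -19.5, ValAAC at -18.6, LysTTT at -10.4, HisGTG at -10.3, SerAGA at -7.71, ArgACG at -5.67, TyrGTA at -3.51, GlyACC at -2.92 and AlaAGC at 2.20 points. For several of them the mean over positions 48 to 50 hid unlike cytosines.

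In ValAAC, C48 went from 90.6% ± 3.08 to 35.2% ± 21.7 and C49 from 95.6% ± 2.39 to 57.4% ± 33.3 (SD, n = 4), whereas C50 went the other way, from 19.9% ± 10.1 to 57.4% ± 37.8. ValCAC behaved alike, with -44.3 points at C48, -43.8 points at C49 and 29.4 points at C50. C50 of ValAAC was at 75.1%, 87.5% and 64.6% in NSun2-/- libraries 1, 2 and 4 and at 2.38% in library 3, close to the background of each library at 59.9%, 70.5%, 54.9% and 1.099%.

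SerAGA showed the same split. C48 went from 95.6% ± 8.75 to 46.3% ± 17.9 and C50 from 8.29% ± 8.72 to 42.2% ± 28.6 (SD, n = 4). In GluTTC it was C48 that was low in WT, at 15.0% ± 4.595, and 22.6 points higher in NSun2-/- skin, while C49 and C50 differed by -50.8 and -46.1 points. With positions 48 and 49 alone, 16 of 20 members passed the test, and ValAAC at -46.2 points (edgeR, adjusted p = 0.00343), ValCAC at -44.0 points (adjusted p = 0.00299), SerAGA at -49.3 points (adjusted p = 0.00189) and TyrGTA at -12.01 points (adjusted p = 0.0246) joined the 12. Without the third NSun2-/- library, ValAAC was at -45.6 points for C48 and -21.9 points for C49, ValCAC at -31.5 and -29.6 points, and SerAGA at -42.3 points for C48.

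**Figure D2:**
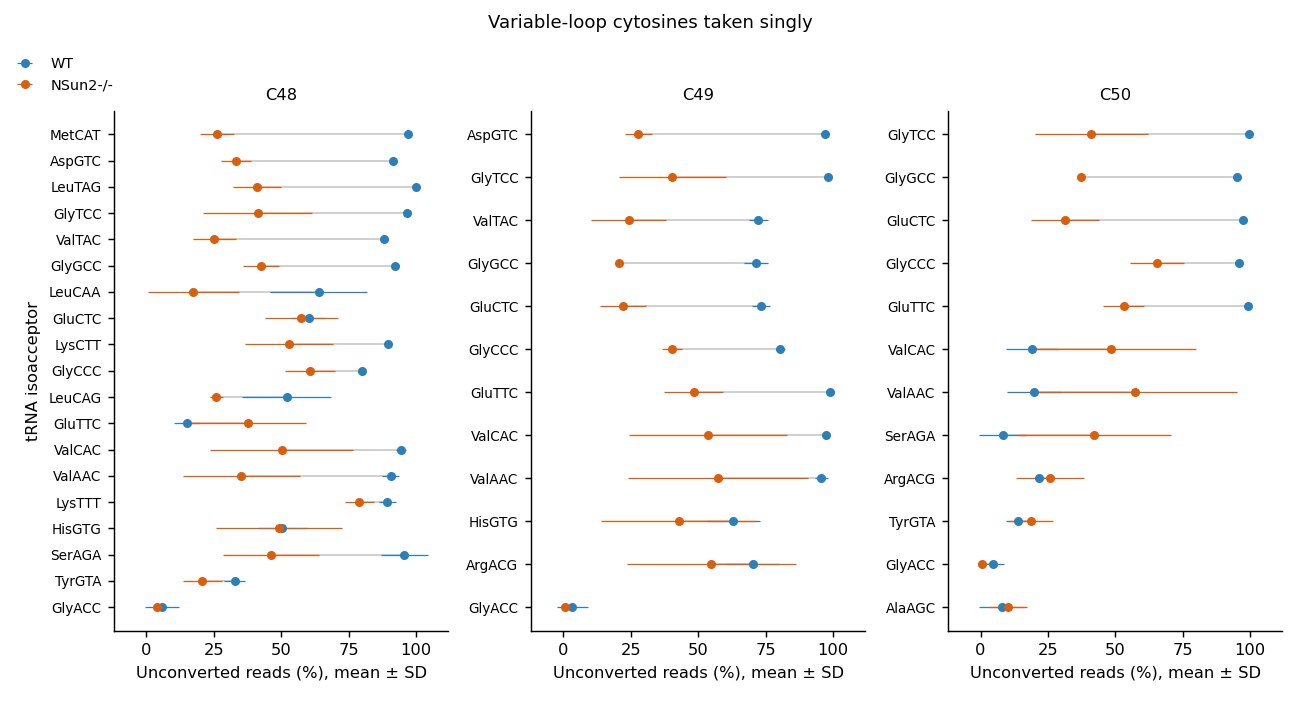
Percent of unconverted reads at C48, C49 and C50 taken singly (x axes, mean ± SD over libraries) for each isoacceptor with that cytosine (y axis), WT in blue and NSun2-/- in orange. C50 of ValCAC, ValAAC and SerAGA and C48 of GluTTC are higher in NSun2-/- skin, whereas C48 and C49 of the Val isoacceptors are lower.

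The members with the smallest differences were low in WT or noisy. GlyACC gave 2.78%, 6.67% and 4.17% in the 3 WT libraries that covered it and 2.53%, 0.98% and 1.33% in 3 NSun2-/- libraries. AlaAGC gave 0%, 16.7% and 7.14% against 11.1%, 16.7% and 2.63%, over 1 cytosine with a median of 27 reads. These cytosines were at most weakly unconverted in either genotype.

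TyrGTA ranged from 19.5% to 27.5% in WT and gave 19.8%, 30.5%, 12.4% and 16.5% in NSun2-/- skin, so that the groups overlapped. ArgACG was at 46.4%, 40.0% and 51.7% in 3 WT libraries and at 56.4%, 47.4%, 8.01% and 49.7% in NSun2-/- skin. Without the third NSun2-/- library, ArgACG, HisGTG and SerAGA differed from WT by 5.12, 2.21 and 2.54 points, and ValAAC and ValCAC by -3.75 and -5.39 points.

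**Figure D3:**
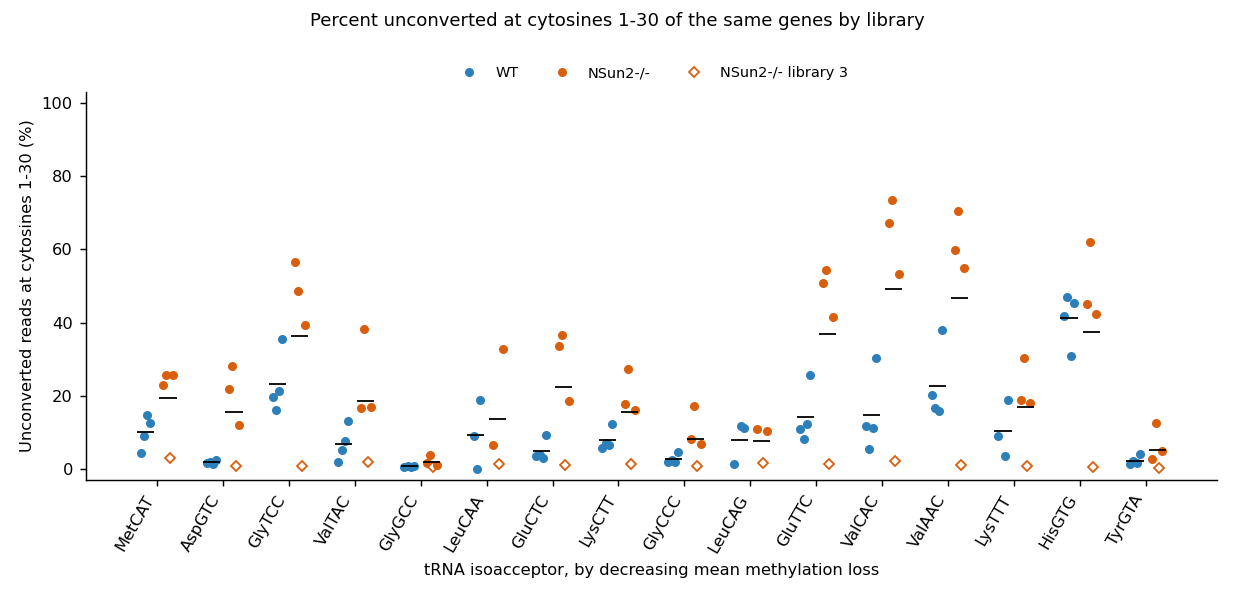
Percent of unconverted reads at cytosines 1-30 of the same tRNA genes (y axis) for the 16 isoacceptors with such cytosines (x axis), with 1 point per library and means as bars. The third NSun2-/- library (open diamonds) never exceeds 2.90%, whereas the others reach 73.5% for ValCAC.

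Removal of the background changed the order of the losses. The loss grew from 19.5 to 64.6 points in ValCAC and from 18.6 to 52.0 points in ValAAC, and from 71.0 to 90.01 points in MetCAT. LysTTT, HisGTG and TyrGTA still showed the smallest differences of the 16 members, at -12.9, -11.9 and -5.94 points. In LysTTT, a lysine tRNA, the only covered cytosine kept 79.0% ± 5.41 (SD, n = 4) in NSun2-/- skin, against 89.4% ± 3.24 (SD, n = 3) in WT.

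C38, the Dnmt2 site of a few tRNAs, served as a comparison within the same genes and could be read in 10 members. It did not fall with C48 to C50 in AspGTC, where it went from 83.1% ± 4.92 to 91.6% ± 1.66, nor in ValAAC, where it went from 61.9% ± 2.12 to 71.2% ± 2.34, and GlyGCC was at 87.6% ± 2.78 and 86.0% ± 1.19 (SD, n = 4). In GlyCCC, C38 went from 20.0% ± 3.62 to 5.53% ± 4.97. C38 was higher in NSun2-/- skin in GluTTC, ValCAC, GluCTC and ValTAC, by 28.3, 25.4, 18.5 and 14.8 points. HisGTG and TyrGTA differed by 6.23 and 2.95 points. The mean background went from 1.91% in WT to 15.7% in NSun2-/- skin for AspGTC, and from 22.7% to 46.6% for ValAAC. AspGTC, ValAAC and GlyCCC each gave a p of 0.0286 by the exact two-sided permutation test, the lowest 4 against 4 can reach, and none passed after adjustment over the 10 members (adjusted p = 0.0952).

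The 5′ fragments went up in some isoacceptors and down in others. Of the 21 members, 4 were higher and 7 were lower in NSun2-/- skin at an adjusted p under 0.05, against 16.3% higher and 34.9% lower of all 43 isoacceptors tested. Values are CPM, counts scaled to the same total of 5′ fragments per library, after TMM normalization, a scaling that takes most isoacceptors as unchanged. With library totals in place of TMM, the median log2 ratio of all isoacceptors was 0.33 higher. Then 7 members were higher and 3 lower, against 11 higher and 7 lower of all 43 isoacceptors tested. The calls of members that held with both scalings were GlyACC, ValAAC, ValCAC and GlyCCC, which were higher, and LeuTAG, GlyTCC and SerAGA, which were lower. AspGTC, GlyGCC, LysCTT and LysTTT were lower with TMM but not with library totals, and MetCAT, HisGTG and ArgACG were higher with library totals but not with TMM. The third NSun2-/- tRNA-seq library mattered as well, and without it 7 members were higher and 0 lower. TMM was computed anew without it, and the log2 ratio of every member rose. LysCTT went from -0.76 to -0.35. Its CPM in this library was 21920, beside 21285, 21552 and 21401 in the other NSun2-/- libraries. The change in these counts therefore includes a change of scaling. With the third WT library left out, 1 member was higher and 4 were lower. TMM was also computed anew for perfectly matching fragments and for fragments not shared between isoacceptors. The median log2 ratio over isoacceptors was then -0.07 and 0.10, against -0.33 with all fragments. Changes with these settings thus include the scaling, since only 2.07% of HisGTG, 5.87% of LysCTT and 6.21% of GlyTCC fragments held a mismatch.

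**Figure D4:**
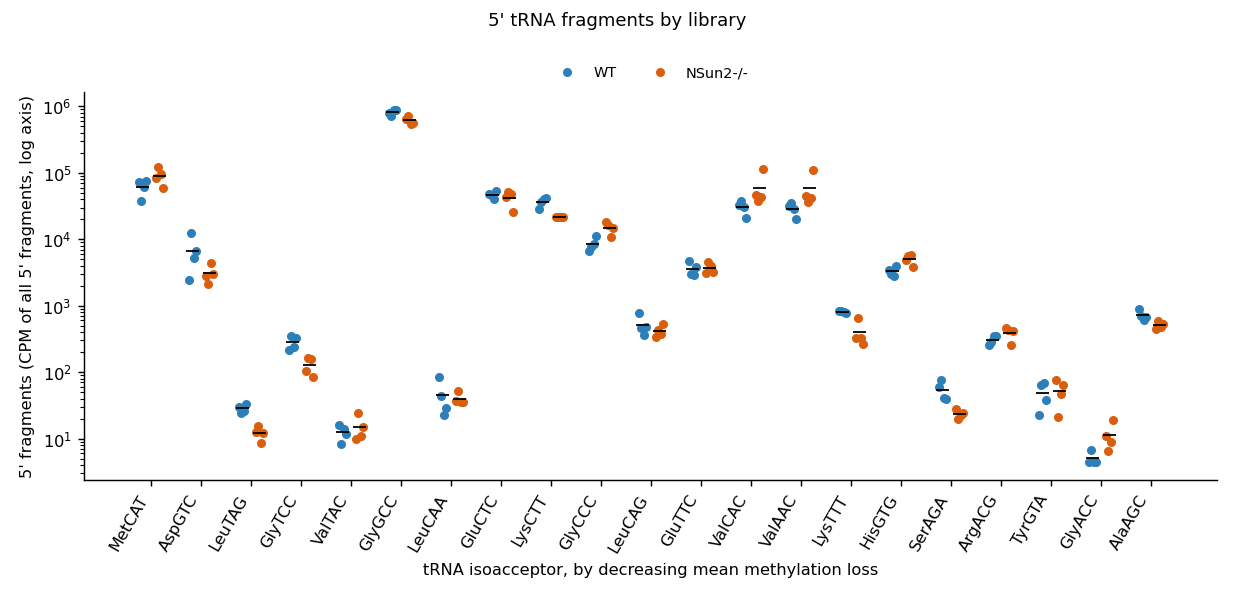
5′ tRNA fragments in CPM (y axis, log scale) for each of the 21 isoacceptors (x axis, by decreasing methylation loss), with 1 point per tRNA-seq library, WT in blue, NSun2-/- in orange and means as bars. GlyGCC takes most fragments in every library, and the fourth NSun2-/- library is highest for ValCAC and ValAAC at 112527 and 108954 CPM.

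Among the 12 members with lower methylation, 5 were lower in 5′ fragments, 1 was higher and 6 did not pass the test, with a median log2 ratio of -0.25. Among the other 9 members, 2 were lower, 3 were higher and 4 did not pass, with a median of 0.34. These 9 include ValAAC, ValCAC, SerAGA and TyrGTA, whose methylation was lower at positions 48 and 49 alone. With library totals, 2 of the 12 were lower and 2 higher, with a median of 0.08, and 1 of the 9 was lower and 5 higher, with a median of 0.66. Over all 43 isoacceptors the median log2 ratio was -0.33 with TMM. The isotypes Asp, Glu, Gly, His, Lys and Val, which the study singled out on these samples and which are therefore no independent evidence, held 13 members, of which 4 were higher and 5 lower. The 8 members of other isotypes held 2 lower and none higher. With library totals these counts were 5 higher and 1 lower of the 13, and 2 higher and 2 lower of the 8.

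The members with the most methylation loss went in both directions. MetCAT, with the largest loss, gave 73785, 37652, 60647 and 73967 CPM in WT and 82191, 121739, 95041 and 58138 CPM in NSun2-/- skin. The groups overlapped, and the log2 ratio was 0.54 ± 0.26 (SE; edgeR, adjusted p = 0.0809). With perfectly matching fragments alone it was 1.02 (adjusted p = 0.00527), and without the third NSun2-/- tRNA-seq library 0.95 (adjusted p = 0.0254), so that the call for MetCAT turned on these choices. AspGTC gave 2416, 12295, 5282 and 6689 CPM in WT and 2815, 2138, 4435 and 2952 CPM in NSun2-/- skin, with a log2 ratio of -1.11 ± 0.38 (SE; adjusted p = 0.0207). The ratio was -0.64 without the second WT library (adjusted p = 0.115), and the call was also lost with perfect matches, at -0.80 (adjusted p = 0.0968). The groups of AspGTC overlapped as well, since the lowest WT library lay below 3 of the 4 NSun2-/- libraries.

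GlyTCC was at 213, 355, 242 and 325 CPM in WT and at 105, 165, 157 and 85.2 CPM in NSun2-/- skin, with a log2 ratio of -1.15 ± 0.28 (SE; adjusted p = 0.00376). LeuTAG was at 29.7, 24.4, 26.4 and 33.3 CPM in WT and at 12.7, 15.3, 8.69 and 12.2 CPM in NSun2-/- skin, with a log2 ratio of -1.22 ± 0.27 (SE; adjusted p = 0.00333). In both, all NSun2-/- libraries lay below all WT libraries. Neither call held without the third NSun2-/- tRNA-seq library, at -0.84 for GlyTCC (adjusted p = 0.0584) and -0.65 for LeuTAG (adjusted p = 0.0954), nor with perfectly matching fragments alone, at -0.69 (adjusted p = 0.123) and -0.76 (adjusted p = 0.0634). Of the LeuTAG fragments, 97.6% fitted LeuAAG equally well, so that the value belongs to both.

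Of the remaining members with lower methylation, 5 did not pass the test. ValTAC was at 0.28 ± 0.33, LeuCAA at -0.18 ± 0.33, GluCTC at -0.14 ± 0.24, LeuCAG at -0.33 ± 0.28 and GluTTC at 0.03 ± 0.27 (log2, SE). LysCTT fell by 0.76 on the log2 scale, with an SE of 0.23 (adjusted p = 0.0142), from 36536 ± 6131 to 21539 ± 276 CPM (SD, n = 4). Without the third NSun2-/- tRNA-seq library its ratio was -0.35 (adjusted p = 0.361), and with perfectly matching fragments -0.27 (adjusted p = 0.549). GlyGCC fell by 0.43, with an SE of 0.16 (adjusted p = 0.0335). Its share of all 5′ fragments went from 76.1% ± 1.64 to 65.7% ± 4.19 (SD, n = 4), and its ratio was -0.10 with library totals. It was 0.06 without the third NSun2-/- tRNA-seq library (adjusted p = 0.833).

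With TMM, GlyCCC was the only member with both higher fragments and lower methylation over positions 48 to 50 together. At positions 48 and 49 alone, ValAAC and ValCAC also combined lower methylation with higher fragments. MetCAT, also lower in methylation, was called higher with library totals or DESeq2 and, unlike GlyCCC, with perfect matches. GlyCCC was at a log2 ratio of 0.81 ± 0.27 (SE; edgeR, adjusted p = 0.0181). The rise rested on a single sequence that fits the GlyGCC genes and 2 of the 4 GlyCCC genes equally well. It is printed here beside the leading GlyGCC fragment, because its share decides the GlyCCC value.
GlyGCC, leading 5′ fragment: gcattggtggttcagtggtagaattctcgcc
GlyCCC and GlyGCC, shared 5′ fragment: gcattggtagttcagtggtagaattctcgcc
The shared sequence has 1 mismatch to all 10 GlyGCC genes and to 2 of the 4 GlyCCC genes. It has 14 mismatches to the other GlyCCC genes, of which one is shown above. It took 18.4%, 22.9%, 25.8% and 22.4% of the GlyCCC fragments in the WT libraries and 55.7%, 47.7%, 58.5% and 56.3% in the NSun2-/- libraries, and the groups did not overlap. In all, 83.5% of the GlyCCC fragments were shared in this way, and 95.5% held a mismatch. Without shared sequences the log2 ratio of GlyCCC was -0.81 (adjusted p = 0.0965), and with perfect matches only it was -0.07 (adjusted p = 0.867).

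The largest rises were in GlyACC, ValAAC and ValCAC, which turned out to be one set of sequences. Their leading 5′ fragments are printed because they show this.
ValAAC and ValCAC, leading 5′ fragment: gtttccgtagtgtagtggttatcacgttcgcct
GlyACC, leading 5′ fragment: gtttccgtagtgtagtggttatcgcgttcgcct
Of the fragments, 99.6% in ValAAC and 95.7% in ValCAC were shared between isoacceptors, mainly between these 2. All GlyACC fragments held a mismatch and fitted ValAAC and ValCAC equally well, so that the GlyACC value is no separate measurement of a glycine tRNA.

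ValCAC was at 32980, 38016, 30463 and 20887 CPM in WT and at 46956, 37604, 42732 and 112527 CPM in NSun2-/- skin, with a log2 ratio of 0.97 ± 0.31 (SE; adjusted p = 0.0177). ValAAC was at 31133, 35167, 28950 and 19870 CPM in WT and at 45109, 36815, 41221 and 108954 CPM in NSun2-/- skin, with a log2 ratio of 1.012 ± 0.31 (SE; adjusted p = 0.0155). The fourth NSun2-/- library lay far above all others, and the groups overlapped in ValCAC but not in ValAAC. Without it the log2 ratios were 0.47 for ValCAC (adjusted p = 0.0775) and 0.51 for ValAAC (adjusted p = 0.0668). Without shared sequences ValCAC was at 0.56 (adjusted p = 0.287) and ValAAC at 1.56 (adjusted p = 0.00753). GlyACC, at 4.44, 6.83, 4.45 and 4.39 CPM in WT and 10.8, 6.45, 8.73 and 19.0 CPM in NSun2-/- skin, gave 1.16 ± 0.36 (SE; adjusted p = 0.0155), and 0.78 without that library (adjusted p = 0.0715).

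The members that did not pass the methylation test over positions 48 to 50 were also spread in both directions. SerAGA, whose C48 was lower and whose C50 was higher in NSun2-/- skin, was at 59.3, 75.4, 40.2 and 39.1 CPM in WT and at 27.6, 19.8, 22.95 and 24.5 CPM in NSun2-/- skin, a log2 ratio of -1.17 ± 0.27 (SE; adjusted p = 0.00346) with no overlap between the groups. All its fragments were shared with SerTGA, and without the third NSun2-/- tRNA-seq library the ratio was -0.72 (adjusted p = 0.0794). LysTTT fell by 1.03, with an SE of 0.29 (adjusted p = 0.0124), from 805 ± 22.4 to 395 ± 179 CPM (SD, n = 4). Without the third NSun2-/- tRNA-seq library LysTTT was at -0.50 (adjusted p = 0.260), and with perfect matches at -0.39 (adjusted p = 0.458). The ratios of HisGTG at 0.60 ± 0.26, ArgACG at 0.34 ± 0.26, TyrGTA at 0.11 ± 0.36 and AlaAGC at -0.50 ± 0.25 (log2, SE) did not pass the test (adjusted p between 0.0534 and 0.799). With perfect matches HisGTG was at 1.05 (adjusted p = 0.0118) and ArgACG at 0.89 (adjusted p = 0.0409), and both passed. Only 2.07% of the HisGTG fragments held a mismatch, so that its ratio moved mainly through the scaling computed anew.

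Set side by side, the methylation difference and the fragment change of the 21 members gave 0.29 as Pearson's r and 0.32 as Spearman's rho. Since a loss is a negative difference, a positive r means that a larger loss went with a lower fragment ratio. These coefficients describe the points and were not tested, because the isoacceptors share libraries, scaling and, for the Val, Gly, Leu and Ser isoacceptors, sequences. With library totals in place of TMM, r was also 0.29. A change of scaling shifts all log2 ratios by nearly the same amount, so that r could hardly change. Leaving out each of the 16 libraries in turn gave an r of 0.22 to 0.34. It was 0.11 over 16 members after removal of the background, 0.19 over 20 members with perfectly matching fragments, 0.16 over 15 members without those whose fragments were mostly shared, and 0.16 with the third NSun2-/- bisulphite library alone. It was 0.73 over the 12 members with a C49, and 0.24 and 0.33 for C48 and C50 alone. In each of these settings r stayed above 0, and in none did larger losses go with larger fragment increases. The settings reuse the same members and libraries and are no independent checks. Over 16 pairings of single NSun2-/- libraries from both assays, r had an SD of 0.16. This SD holds the spread between NSun2-/- libraries but not that between WT libraries or isoacceptors, and the pairings share libraries. It therefore cannot tell whether any of these r values is apart from 0.

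**Figure D5:**
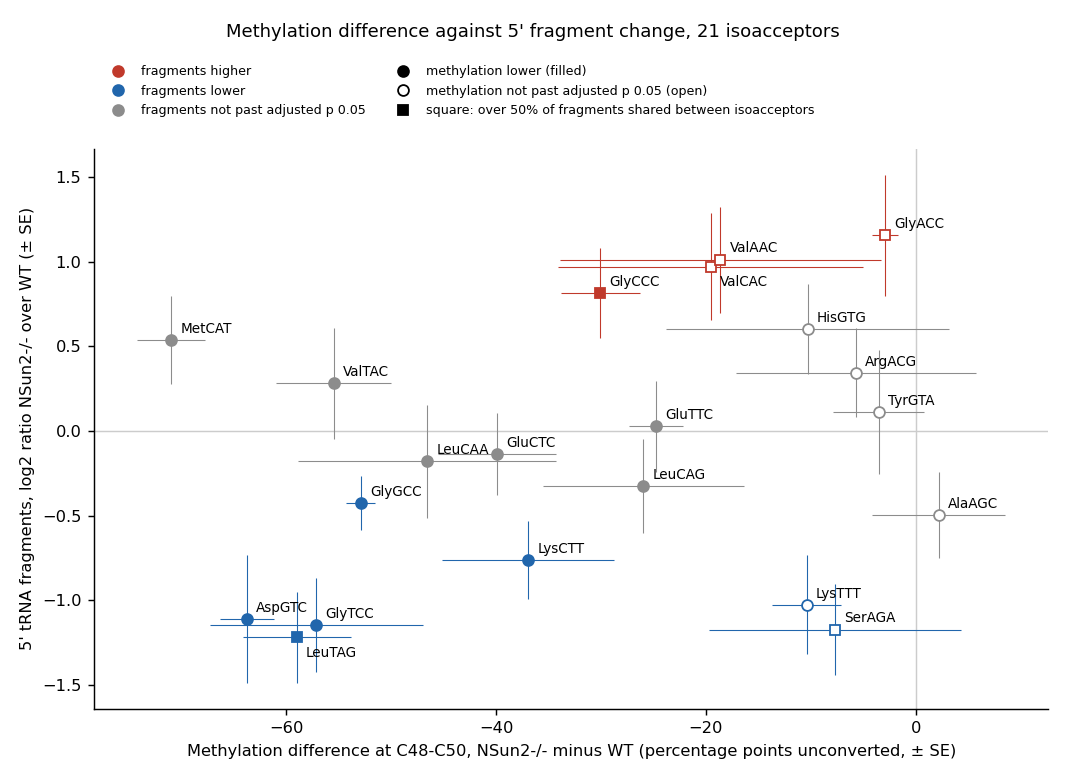
Methylation difference at C48-C50 in percentage points (x axis, ± SE over libraries) against the log2 ratio of 5′ fragments (y axis, ± SE from edgeR) for the 21 isoacceptors, with colour for the fragment call, filled symbols for lower methylation and squares where over 50% of fragments are shared. AspGTC, LeuTAG and GlyTCC combine large losses with lower fragments, whereas GlyACC, ValAAC and ValCAC are highest with losses of 2.92, 18.6 and 19.5 points. The fragments of GlyACC, ValAAC and ValCAC are largely one set of sequences. At C48 and C49 alone ValAAC and ValCAC differed by -46.2 and -44.0 points.

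Isoacceptors with close losses could lie far apart in fragments. AspGTC at -63.7 and MetCAT at -71.0 points lay at log2 ratios of -1.11 and 0.54, and LysTTT and HisGTG, at -10.4 and -10.3 points, lay at -1.03 and 0.60. Without the third NSun2-/- bisulphite library LysTTT and HisGTG were at -7.86 and 2.21 points. These contrasts between members were not tested. Fragments were counted over all genes of an isoacceptor, but methylation could be read in only some of them. It came from 1 of 8 genes in LysTTT, 4 of 6 in HisGTG, 6 of 13 in MetCAT and 9 of 9 in AspGTC.

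The WT level of methylation had an r of -0.35 and a rho of -0.41 with the fragment change over 21 members. Since the WT level is subtracted in the methylation difference, this is no independent relation. The difference in background had an r of 0.28 and a rho of 0.17 with the fragment change over 16 members.

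Other readouts of the same tRNAs were compared as well. 3′ fragments of 25 to 40 nt with a CCA end were tested in all 21 members, of which 2 were higher and 3 lower, against 14.6% higher and 17.1% lower of 41 isoacceptors. AspGTC and TyrGTA were higher, at log2 ratios of 0.70 ± 0.23 and 0.91 ± 0.23 (SE; adjusted p = 0.0426 and 0.0210). GlyGCC and SerAGA were lower, at -1.02 ± 0.27 and -1.45 ± 0.27 (SE; adjusted p = 0.0248 and 0.00618). LysCTT was lower too, since it was listed at 0 in all 4 NSun2-/- libraries and at 58.9 to 497 CPM in WT (adjusted p = 0.00752).

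AspGTC was lower in 5′ and higher in 3′ fragments with TMM, but its 3′ ratio was -0.93 with library totals beside a 5′ ratio of -0.79. GlyGCC and SerAGA were lower in both with TMM. Each NSun2-/- library held fewer 3′ fragments than any WT library, 174686 to 248570 counts against 459709 to 850060 in WT, and with library totals 13 members were lower and none was higher. The methylation difference had an r of 0.04 and a rho of -0.01 with the 3′ fragment change over 21 members.

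Mature tRNAs, taken as reads with a CCA end over at least 90% of a gene, could be tested for 14 members. By edgeR's test none was higher or lower at an adjusted p under 0.05, as for 0.0% of the 19 isoacceptors tested in either direction, and 4 members had an unadjusted p under 0.05. Each NSun2-/- library held fewer mature tRNA counts than any WT library, 691545 to 1209058 against 1489141 to 1686427, a difference that TMM scales out. AspGTC, GlyGCC and GluCTC were closest to the threshold, at log2 ratios of -0.52 ± 0.19, -0.81 ± 0.28 and -0.54 ± 0.19 (SE; adjusted p = 0.0907 each). MetCAT was at 94.4 to 222 CPM in WT and 58.0 to 261 CPM in NSun2-/- skin, which leaves its ratio of -0.24 ± 0.56 (SE) imprecise. The methylation difference had an r of 0.18 and a rho of 0.33 with the mature tRNA change over 14 members.

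The 5′ fragments were also compared by length. Their mean length per isoacceptor lay between 27.4 and 33.4 nt in WT, and the differences between genotypes ranged from -0.41 nt in GlyCCC to 1.496 nt in SerAGA. For MetCAT it was 31.03 nt ± 0.026 and 31.02 nt ± 0.015 (SD, n = 4), and for AspGTC 33.4 nt ± 0.15 and 33.6 nt ± 0.11 (SD, n = 4). No member passed after adjustment over the 21 (exact two-sided permutation test, smallest adjusted p = 0.48).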

How the data were processed

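RNA bisulphite sequencing and tRNA-seq of mouse back skin were analysed, with 4 WT and 4 NSun2-/- libraries each. For the bisulphite data, the authors aligned reads with Bismark (0.7.6 per the labels) and deposited counts of unconverted and converted reads per cytosine. No listed cytosine had under 10 reads. For tRNA-seq, the authors used Bowtie with mm9 as the reference, realigned reads after trimming of CCA ends, distributed reads that matched several genes and deposited counts per gene and read sequence. Counts of one sequence in several genes are therefore not independent, and PCR duplicates could not be removed.

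Position 49 was set 24 nt before the last base of each tRNA gene. Cytosines at positions 48 to 50 had to be listed in at least 3 libraries per genotype, and their percentages were averaged per isoacceptor. The background correction used the percentage at cytosines 1 to 30. A fragment sequence was given to the isoacceptors it matched with the fewest mismatches, at most 4, and between 0.1765% and 0.2093% of counts could not be placed. Sequences of genes were read from mm9. Tests were edgeR's quasi-likelihood test (edgeR 4.0.16, R 4.3.3) with TMM, filterByExpr and Benjamini-Hochberg adjustment, and exact permutation tests over libraries. Alternatives used DESeq2 1.42.0, limma 3.58.1, library totals, other fragment definitions, a minimum of 30 reads and each library left out. The scripts were tested on simulated data. Every member was named with both values. Library values were given for the 4 largest and 4 smallest methylation losses and the 3 largest rises and falls in 5′ fragments. The members and lists were chosen with earlier results of these data known. Pol III ChIP-seq was not used here.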

Additional observations from a re-analysis of the deposited data

Results flagged for a closer look

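Among 80 groups of 4 values, 9 held a library far from the other 3 of its group by Dixon's test, and chance gives about 1 in 20. Methylation at positions 48 to 50 stood apart for ValTAC in the second NSun2-/- library at 40.9%, for ValAAC in the fourth WT library at 74.7% and for HisGTG in the third NSun2-/- library at 8.87%. The mean background was 17.7% in the fourth WT library, above the other WT libraries. In 5′ fragments the fourth NSun2-/- library stood apart for ValCAC at 112527 CPM and ValAAC at 108954 CPM, which are largely the same sequences. The second NSun2-/- library did so for LeuCAA at 51.5 CPM and LysTTT at 659 CPM, and the second WT library for GlyACC at 6.83 CPM.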

How the results depend on the processing

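Between 9 and 16 members were lower in methylation over the alternatives run, and 11 to 13 when each library was left out. The mean difference ranged from -35.3 to -25.3 points over the left-out libraries. Its permutation p rose above 0.05 when any WT library was left out, although all NSun2-/- libraries still lay below all remaining WT libraries. The lowest p that this test can reach with 3 against 4 libraries is 0.0286. For 5′ fragments, 7 members were higher and 3 lower with library totals, 7 and 4 with DESeq2, 5 and 1 with perfect matches, 6 and 4 with starts up to 1 nt away, 3 and 0 without shared sequences, and 5 and 0 by the listed gene. Leaving out each library gave 1 to 7 higher and 0 to 7 lower. Except with library totals, the scaling was computed anew in each of these settings. Of all 43 isoacceptors tested, 11 were higher and 7 lower with library totals, and 11 and 9 with DESeq2. Perfect matches gave 9 higher and 2 lower of 41 isoacceptors, and fragments without shared sequences 7 and 1 of 37.

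Replicate numbers did not pair the libraries, as deviations of equal numbers correlated between -0.62 and 0.07 in tRNA-seq and between -0.36 and 0.23 in the bisulphite data. With the replicate block, 1 member was higher and 4 were lower in 5′ fragments, 1 was higher in 3′ fragments, 6 were lower in mature tRNAs and 11 were lower in methylation, and r was 0.27. For 3′ fragments, library totals gave 0 higher and 13 lower, and left-out libraries 0 to 5 higher and 2 to 5 lower. For mature tRNAs, left-out libraries gave 0 to 4 lower.

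The coefficient r moved to 0.54 with at least 30 reads per cytosine (13 members), 0.11 after removal of the background, 0.51 with at least 2 genes (14 members) and 0.73 at C49 alone, chosen after seeing the data. The cause was not tested.

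Directions changed for some members. In 5′ fragments (log2), library totals gave 0.20 for GluCTC, 0.15 for LeuCAA and 0.0059 for LeuCAG, and DESeq2 gave 0.14 for GluCTC and 0.13 for LeuCAA. Perfect matches gave 0.32 for GluCTC and -0.067 for GlyCCC. Without shared sequences the values were 0.30 for GluCTC, -0.81 for GlyCCC, 0.091 for LeuCAA and 0.10 for LeuCAG. By the listed gene they were 0.011 for AlaAGC, 0.38 for GluCTC, -0.045 for GlyCCC, 0.13 for GlyGCC, 0.30 for LeuCAA and 0.22 for LeuCAG. LeuCAA was at 1.11 with lengths of 30 to 36 nt and 0.058 with starts 1 nt away. Left-out libraries gave -0.15 to 0.23 for GluCTC, -0.046 to 0.45 for GluTTC, -0.49 to 0.055 for GlyGCC, -0.29 to 0.37 for LeuCAA, -0.46 to 0.19 for LeuCAG and -0.14 to 0.57 for TyrGTA.

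In 3′ fragments, library totals gave -0.82 for AlaAGC, -0.93 for AspGTC, -1.03 for GluTTC, -0.90 for LeuCAA, -1.25 for LeuCAG, -0.83 for LysTTT, -1.14 for MetCAT, -0.49 for TyrGTA, -1.50 for ValAAC and -1.29 for ValTAC. Left-out libraries gave -0.63 to 0.17 for GlyCCC, -0.68 to 0.049 for LeuTAG and -0.28 to 0.39 for ValAAC. In mature tRNAs, LysCTT was at -0.51 with library totals, and left-out libraries gave -0.51 to 0.72 for LysTTT, -0.85 to 0.12 for MetCAT and -0.95 to 0.35 for AlaAGC. In methylation, C48 alone gave 22.6 points for GluTTC. The log2 odds ratio over left-out libraries ran from -0.52 to 0.90 for AlaAGC, -0.64 to 0.25 for ArgACG, -0.96 to 0.063 for SerAGA, -1.60 to 0.020 for ValAAC and -1.30 to 0.12 for ValCAC. Depth limited LeuTAG, LeuCAG, LysTTT, GlyACC and AlaAGC, which rested on few reads of 1 gene.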
